A study of Mus musculus with 12 samples.

Results

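The H/ACA small nucleolar RNAs (snoRNAs) and small Cajal body RNAs (scaRNAs) were followed as short sequenced fragments in mouse embryonic stem cells. Their genes were chosen by symbol, taking every annotated snoRNA or scaRNA gene whose name begins with Snora or Scarna in GENCODE M21. This gave 51 gene entries with 49 symbols, 40 Snora and 9 Scarna, out of 1558 snoRNA and scaRNA genes. Reads were found for 48 of the 49. Snora35, a snoRNA of a serotonin receptor intron (Htr2c) known as brain specific, had 0 reads in all 12 libraries. A read counted when its whole sequence, of 18 nt or more, matched a member on its strand, and 658366 reads of 18078 distinct sequences did so.

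The series sequenced RNA of 18 to 75 nt, cut from a gel, from embryonic stem cells grown on gelatin. The TT-FHAgo2 line carries Ago2 tagged with FLAG and HA, and in the TT-Ago2 line the protein has no tag; both are clonal lines propagated in 0.1 µg/mL doxycycline and induced at 2.5 µg/mL. A FLAG antibody pull-down (IP) was made from both, so that the 2 tagged IP libraries can be set against 2 untagged IP libraries, with 2 tagged and 2 untagged input libraries beside them, all cloned without need of a 5′ phosphate. Cloning that needs a 5′ phosphate gave 1 library each of TT-FHAgo2 cells with 2.5 µg/mL doxycycline (dox), TT-FHAgo2 cells without it (no dox), Dicer null cells and wildtype cells; the Dicer null and wildtype cells also had no doxycycline. By the design text these lines let cells be examined without Ago proteins. No label tells how the wildtype and Dicer null lines relate to the TT lines. The titles of all 4 replicate 1 IPs and inputs end in the same code and those of replicate 2 in another, and no label says what the codes mark. Replicate 1 of each IP and input has reads of up to 50 nt, replicate 2 of up to 51 nt, and the 4 single libraries of up to 40 nt. Whether replicates are separate cultures is not labelled; p-values therefore measure only a spread among libraries that may be technical.

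H/ACA RNAs fold into a pair of hairpins joined by the H box (ANANNA) and end in an ACA tail, a few bases before the 3′ end. With dyskerin (Dkc1), Gar1, Nhp2 and Nop10 they form particles that turn chosen uridines of other RNAs into pseudouridine. In humans most SNORA RNAs act on ribosomal RNA in the nucleolus, while scaRNAs act on spliceosomal RNAs in Cajal bodies. Dicer, which cuts miRNAs from their hairpins, can also cut some of these RNAs, and Ago2 is the protein that holds the resulting short strand.

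The names were checked against sequence. An H box lay within 20 nt of the midpoint in 43 of 49 members, an ACA stood at the 3′ end in 42, and both in 38. Among the Scarna symbols only 3 of 9 held both motifs, and the human counterparts of Scarna2, Scarna9 and Scarna17 are known as C/D-box guides. The symbol rule therefore takes in a few RNAs outside the H/ACA class. Member genes were 70 to 414 nt long with a median of 133 nt. The annotation places 42 inside a host gene and has a miRNA gene on top of 8 of them.

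The fragments on which the results turn are printed here, 5′ to 3′, with the seed (bases 2 to 8) in capitals, since Ago2 pairs with targets through those bases. The first set lies where the annotation has a miRNA gene inside a member. In Snora36b (host gene Rab3gap2) both arms of one hairpin were read, at GRCm38 chr1:185242975-185242996 and chr1:185243012-185243034, plus strand, and they begin where miR-664-5p and miR-664-3p begin. In Scarna3b (host Dcaf5) they lie at chr12:80391653-80391674 and chr12:80391616-80391636, minus strand, and begin where miR-1843a-5p and miR-1843a-3p begin. The Scarna3a (host Cop1) fragment at chr1:159340361-159340382, plus strand, begins 1 base before miR-1843b-5p and shares its seed, ATGGAGG, with the 5′ arm of Scarna3b. A fragment that begins where miR-1843b-5p begins, with the seed TGGAGGT, matches Scarna3a and Scarna3b alike and is not printed. It had 2.19 and 6.94 CPM in tagged IPs, against 1.40 and 1.36 CPM for the printed Scarna3a fragment. The Snora19 fragment (host Eif3a) at chr19:60774333-60774354, minus strand, begins where miR-3084-3p begins.
Snora36b 5′ arm: cTGGCTGGggaaaatgactgga
Snora36b 3′ arm: tATTCATTtactccccagcctac
Scarna3b 5′ arm: tATGGAGGtctctgtctgactt
Scarna3b 3′ arm: tCTGATCGttcacctccatac
Scarna3a 5′ arm: cATGGAGGtctctgtctgactt
Snora19 3′ arm: tTCTGCCAgtctccttcagaca

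RefSeq (GRCm38.p6 table) gives these mature miRNAs as CUGGCUGGGGAAAAUGACUGG for miR-664-5p, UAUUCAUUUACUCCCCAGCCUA for miR-664-3p, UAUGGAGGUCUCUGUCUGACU for miR-1843a-5p and UUCUGCCAGUCUCCUUCAGAC for miR-3084-3p. The commonest fragments thus share the RefSeq 5′ ends, and differ from them at the 3′ end in all 4 cases.

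The second set has no annotated miRNA. It shows the Snora41 (host Eef1b2) and Snora7a (host Rpl32) fragments that were scarce without Dicer, at chr1:63179111-63179132, plus strand, and chr6:115807979-115808000, minus strand. The Snora3 (host Rpl27a) fragment from the first base of its gene, chr7:109520120-109520141, plus strand, was high in the tagged IP. The Snora16a (host Snhg12) and Snora9 (host Snhg15) fragments are the last 21 nt of their genes, chr4:132309580-132309600, plus strand, and chr11:6528033-6528053, minus strand, and stand for the abundant 3′-terminal reads.
Snora41 fragment: gGAGGATTatgtgtgacagaca
Snora7a fragment: tGATTGGAagacactctgcaac
Snora3 first bases: tCCGAGGCtagagtcacgctca
Snora16a last bases: aCATTGTGgaaaatgacagct
Snora9 last bases: tTATAGAAatttcagacaata

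Library totals ran from 14474875 to 78762632 reads, and 0 reads of a member allow up to 0.0381 to 0.207 CPM (counts scaled to a file total of 1000000), counting error only. Stem-cell hairpins (miR-290 and miR-302 groups, 11 listed) summed to 398600 and 291500 CPM in tagged IPs, against 65670 and 85640 CPM in untagged IPs. They summed to 47730 CPM with dox and 889.8 CPM without, and to 260.3 CPM in Dicer null cells and 78480 CPM in wildtype cells. Fibroblast hairpins (6 listed) were at or below 592 CPM in every library. Ago1 mRNA fragments numbered 407 in the Dicer null library, 34 in the wildtype library, 2 and 1 in the untagged IPs and 0 in the other TT libraries. Ago2 mRNA fragments, of the gene that doxycycline controls, numbered 141 with dox and 138 without, or 5.07 and 5.20 CPM, and so were not higher with dox; the labels do not say whether the induced Ago2 has the annotated mouse sequence. The deletion in Dicer1 is not located by the labels, so its reads check nothing.

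Reads of H/ACA members made up a smaller share of the tagged IP than of the untagged IP, but more of what was there was of miRNA length. Members summed to 125.5 and 144.3 CPM in the tagged IPs, against 267.5 and 258.2 CPM in the untagged IPs. The tagged and untagged inputs held 826.8 and 533.8 CPM, and 616.9 and 479.4 CPM. Both tagged IPs lay below both untagged IPs, and all IPs below all inputs. The tagged IP mean of 134.9 ± 13.3 CPM was 0.513 of the untagged mean of 262.9 ± 6.58 CPM (SD, n = 2 each), at 0.469 within replicate 1 and 0.559 within replicate 2. The exact two-sided permutation test gave p = 0.333, the smallest that 2 against 2 libraries allow. Per read outside miRNA hairpins the tagged and untagged shares were nearly equal, at 0.0301% and 0.0293% in tagged IPs against 0.0295% and 0.0297% in untagged IPs. In bulk RNA, fewer cells of a type and less RNA per cell cannot be told apart.

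Member reads were shorter in the tagged IP than in the other libraries, as were reads of the whole library. Reads of 20 to 24 nt made up 62.7% and 62.1% of member reads in tagged IPs, against 24.2% and 27.1% in untagged IPs. In inputs they made up 21.2% and 30.0% of tagged and 18.6% and 31.7% of untagged reads. The mean was 62.4 ± 0.446% in tagged IPs and 25.6 ± 2.07% in untagged IPs (SD, n = 2 each, exact permutation p = 0.333, the smallest possible), with ratios of 2.59 within replicate 1 and 2.29 within replicate 2. The groups did not overlap. Over all reads of a library the same window held 79.0% and 77.8% in tagged IPs, against 24.97% and 33.6% in untagged IPs, so the members lay below the whole library in the tagged IP. Reads of exactly 22 nt were 26.3% and 22.1% of member reads in tagged IPs, against 7.94% and 8.24% in untagged IPs. Reads of 37 nt were 3.01% and 2.30% of member reads in tagged IPs, against 5.19% to 10.7% in the 4 inputs.

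**Figure D1:**
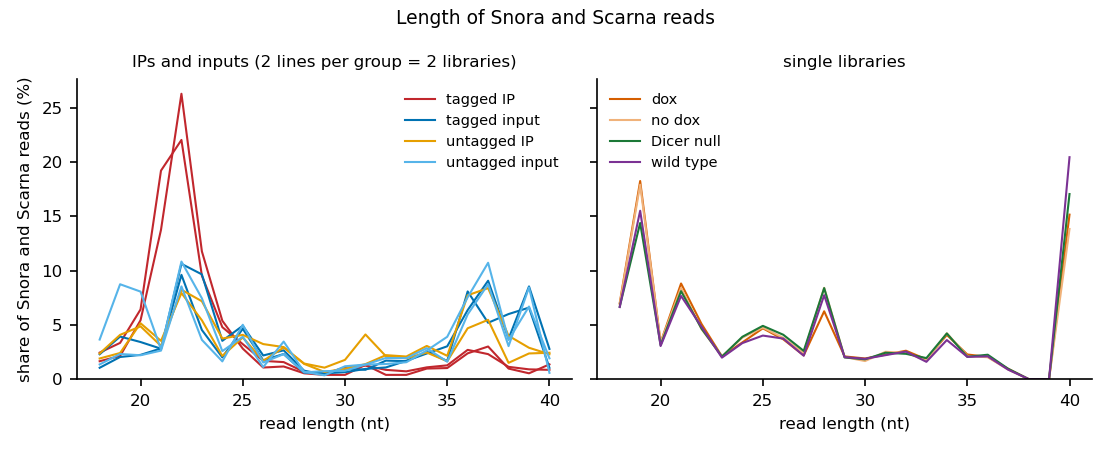
Percent of H/ACA member reads (vertical axis) at each read length in nt (horizontal axis) in each of the 12 libraries, in panels by library group. The tagged IPs peak at 22 nt with 26.3% and 22.1% of member reads, and the single libraries at 19 nt and at their 40 nt read end. In the single libraries reads of 18 and 19 nt made up 21.1% to 25.3% of member reads, and 12.3% to 13.7% without Snora9. Nearly all Snora9 reads also match other annotated transcripts.

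Much of that window lay in annotated miRNA genes in the tagged IPs. Within 20 to 24 nt, 55.6% and 65.4% of member reads lay in such a gene in tagged IPs. This compares with 9.87% and 16.6% in untagged IPs and 1.51% to 2.82% in inputs. Of all member reads, 40.9% and 45.9% fell inside one in tagged IPs, against 4.37% and 7.18% in untagged IPs and 1.66% to 2.14% in inputs. With those reads left out, the 20 to 24 nt share was 43.3 ± 5.25% in tagged IPs and 23.6 ± 1.10% in untagged IPs (SD, n = 2 each, exact permutation p = 0.333). The groups still did not overlap. In CPM the order turned: 20 to 24 nt reads of all members averaged 84.1 ± 7.66 CPM in tagged IPs and 67.3 ± 3.75 CPM in untagged IPs, whereas outside miRNA genes they averaged 32.9 ± 2.83 CPM in tagged IPs and 58.3 ± 0.0354 CPM in untagged IPs.

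The reads came mainly from the 3′ hairpin of the members in the IPs and inputs, and less so in the single libraries. The share of reads centred past the gene midpoint was 91.8% and 88.5% in tagged IPs, against 95.3% and 91.5% in untagged IPs, and lay between 95.9% and 96.2% in the 4 inputs. Tagged and untagged IPs overlapped (exact permutation p = 0.667, where 0.333 is the smallest possible). With dox it was 68.3% and without 69.9%, and it was 65.0% in Dicer null and 63.0% in wildtype cells. The single libraries, whose cloning needs a 5′ phosphate, instead held many reads from the first bases of the gene: 27.4% of member reads began in the first 3 nt with dox and 26.0% without, and 29.7% in Dicer null and 33.1% in wildtype cells. The corresponding shares were 5.04% and 6.79% in tagged IPs, 1.44% and 3.36% in untagged IPs and 0.735% to 1.20% in inputs. The single libraries also differ in read end and cloning, which cannot be told apart here.

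Reads ending near the annotated gene end made up a smaller share in the tagged IP. Those ending within 5 nt of it were 60.1% and 57.5% of member reads in tagged IPs, against 87.2% and 83.2% in untagged IPs, and 88.5% to 92.7% in inputs. This window takes in fragments that stop short of the end, such as Snora36b base 106 and Snora41 base 108, with 4 and 3 nt after them. The tagged IPs lay below every other circularized library. A 5′ T, the base that Ago proteins are known to favour at the start of a guide, opened 51.7% and 43.8% of 20 to 24 nt reads in tagged IPs, against 27.3% and 32.9% in untagged IPs (exact permutation p = 0.333, the smallest possible); tagged inputs, at 31.3% and 49.1%, overlapped the tagged IPs. Outside annotated miRNA genes the 5′ T share was 33.8 ± 0.976% in tagged IPs, 25.6 ± 3.51% in untagged IPs and 39.9 ± 12.6% in tagged inputs (SD, n = 2 each).

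**Figure D2:**
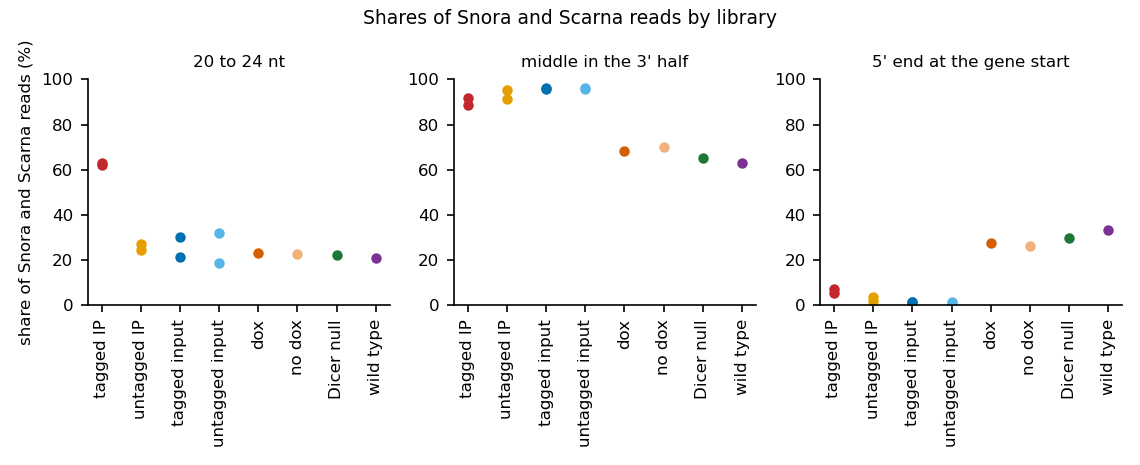
Shares of H/ACA member reads in percent (vertical axes) for each of the 12 libraries, 1 point a library. The 20 to 24 nt share sits above 62% in both tagged IPs and below 32% in the other 10 libraries, and reads at the gene start are commonest in the 4 single libraries.

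Most members followed the 3′ side one by one in IPs and inputs. Of members with at least 50 reads in the summed libraries, 26 of 28 came mostly from past the midpoint in tagged IPs, 35 of 36 in untagged IPs and 44 of 45 in inputs. The exceptions in tagged IPs were Snora3, with 4.52% of its reads past the midpoint, and Snora64 (host Rps2), with 28.1%. In the single libraries 27 of 47 members came mostly from the 3′ side and 20 from the 5′ side. Snora62 (host Rpsa) had 0.796% of its single-library reads past the midpoint, against 96.6% of its input reads, and Snora31 (host Tpt1) 7.74% against 93.8%.

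Against the untagged IP, 4 of the 50 member rows tested were higher in the tagged IP and 28 were lower. A row is a symbol, or a merged name for sequences that 2 members share. Of all 1541 small-RNA features tested, 32.1% were higher and 34.7% lower (edgeR quasi-likelihood test, Benjamini-Hochberg adjusted over all features, threshold 0.05). The median log2 fold change was -1.83 over members and -1.31 over all features, so the median of members minus that of all was -0.52. This difference was -0.53 with TMM factors and -0.52 with DESeq2 size factors, which set the median of all features at -1.80 and 0.08, but -0.88 with reads outside miRNA hairpins as library size and -0.73 without sequences in miRNA genes. With either tagged IP library left out no feature of any kind, member or not, passed the edgeR test in either direction. Without tagged IP replicate 1 and 2 in turn, the median was -1.75 and -1.88 over members. Over all features it was -1.215 and -1.65. Without either untagged IP library calls were lost as well, among members and among all features. Without untagged IP replicate 1 and 2 in turn, the median was -1.76 and -1.72 over members. Over all features it was -0.77 and -0.99.

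The 4 that were higher are the members that carry the miR-664 and miR-1843 hairpins. Snora36b, of the snoRNA family that carries miR-664, had 22.0 and 29.6 CPM in tagged IPs, against 2.26 and 5.76 CPM in untagged IPs, and from 0.869 to 1.98 CPM in the 4 inputs. Both tagged IPs lay above every other library (log2 fold change 2.68, SE 0.67, adjusted p = 0.0118). Scarna3b, a scaRNA with miR-1843a, had 9.25 and 10.3 CPM in tagged IPs, against 1.69 and 1.43 CPM in untagged IPs and 0.377 to 0.602 CPM in inputs (log2 fold change 2.65, adjusted p = 0.0118). Its paralog Scarna3a, with miR-1843b, had 4.99 and 6.25 CPM in tagged IPs, against 0.565 and 1.70 CPM in untagged IPs (2.30, adjusted p = 0.0396). The sequences that Scarna3a and Scarna3b share had 3.41 and 9.80 CPM in tagged IPs, against 0.677 and 2.19 CPM in untagged IPs (2.20, adjusted p = 0.0391), and cannot be given to either paralog. In none of these 4 did tagged and untagged IPs overlap. For each, the call was lost when either tagged IP or untagged IP replicate 1 was left out, with adjusted p up to 0.29 over all leave-one-out fits. Relative to the median of annotated miRNA features (2.46) Snora36b lay 0.22 and Scarna3b 0.19 higher, and Scarna3a 0.16 lower.

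The members that fell are guides with no annotated miRNA in most cases. Snora16a had 0.913 and 1.93 CPM in tagged IPs, against 6.61 and 12.6 CPM in untagged IPs (log2 fold change -2.74, SE 0.67, adjusted p = 0.0118). Scarna10, whose human counterpart is the mixed guide U85, had 2.13 and 2.52 CPM in tagged IPs, against 17.2 and 15.8 CPM in untagged IPs (-2.82, adjusted p = 0.0118). Neither overlapped between the IPs. Snora73a, whose human counterpart U17 takes part in ribosomal RNA cleavage, had 1.76 and 1.16 CPM in tagged IPs, against 8.41 and 6.42 CPM in untagged IPs. Its copy Snora73b had 0.243 and 0.299 CPM in tagged IPs, against 2.15 and 1.21 CPM in untagged IPs, and both were called lower. Other large falls were Snora70 at -2.85, Snora9 at -2.70 and Snora69 at -2.63 on the log2 scale. With reads outside miRNA hairpins as library size 6 members were higher and 6 lower, where 40% and 11.6% of all features were. With DESeq2 9 were higher and 1 lower, where 38.8% and 7.72% of all features were. Without sequences in miRNA genes edgeR called 0 of 46 members higher and 28 lower, with 30 at an unadjusted p under 0.05 in either direction. Of all 1537 features 491 were higher and 537 lower there, with 1119 at an unadjusted p under 0.05.

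Against the tagged input, 5 members were higher in the tagged IP and 35 lower, with 38.4% and 39.6% of all features called in those directions. The median was -2.88 over members and -1.22 over all features. Both comparisons use the same tagged IP libraries, so their values are set side by side only. Snora36b had a log2 fold change of 4.80, Scarna3b of 4.31, Scarna3a of 3.15 and their shared sequences of 5.68. Snora19, the fifth, had 5.72 and 6.54 CPM in tagged IPs, against 2.34 and 2.21 CPM in tagged inputs (1.43, adjusted p = 0.0436); this call was lost in each of the 8 leave-one-out fits, the adjusted p reaching 0.23. Of the lower members Snora65 was the most abundant in inputs, with 4.14 and 5.08 CPM in tagged IPs, against 173 and 61.5 CPM in tagged inputs (-4.66, adjusted p = 0.00038). Snora15 (-5.05), Snora70 (-4.93), Snora16a (-4.59) and Snora69 (-4.43) were the other large falls. Snora15 averaged 0.0969 CPM in tagged IPs, where 0 reads allow up to 0.183 and 0.0997 CPM.

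The untagged IP differed from its own input in 1 member. Snora34 (host Kansl2) had 2.82 and 4.44 CPM in untagged IPs, against 17.8 and 25.3 CPM in untagged inputs (-2.57, adjusted p = 0.0475), a call lost in 6 of 8 leave-one-out fits. No member was higher. At an unadjusted p under 0.05 in either direction stood 8 of 50 members and 584 of all 1541 features. Over all features 6.62% were higher and 1.43% lower. DESeq2 called 0 members higher and 10 lower, and 327 and 153 of all 1541 features. The median log2 fold change was -0.78 over members and 0.66 over all features, a difference of -1.44. Between the tagged IP and its input that difference was -1.66. With the title code (replicate number) as a block 1 member was higher and 6 lower, where 26.4% and 9.09% of all features were. The test of the difference between the gains of both lines called 3 members higher in the tagged line and 14 lower, with 20.1% and 19.1% of all features called; with the block it called 3 and 24, with 27.6% and 30.9% of all features. The 3 were Snora36b, Scarna3b and the shared Scarna3a/Scarna3b sequences. With either tagged IP, tagged input replicate 2, untagged IP replicate 1 or either untagged input left out, no feature of any kind was called for this difference by edgeR. In those fits its median ran from -2.43 to -1.96 over members and from -1.455 to -0.70 over all features.

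Limited to reads of 20 to 24 nt, 10 of 30 member rows tested were higher in the tagged than in the untagged IP and 7 lower, against 48.8% and 21.1% of 1028 features. The other member rows had too few such reads to be tested. The median was -0.88 over members and 1.94 over all features, a difference of -2.82, which was -2.78 with TMM factors, -2.93 with DESeq2, -2.05 with reads outside miRNA hairpins as library size, -1.75 with all 20 to 24 nt reads as library size and -3.28 without sequences in miRNA genes. Named in order, Snora36b (2.75), Scarna3b (2.73), Scarna3a (2.61), Snora41 (2.49), Snora26 (2.48), Snora3 (2.39) and Snora19 (2.29) stood highest on the log2 scale. The lower ones were Scarna10 (-3.25), Snora31 (-2.94), Snora57 (-2.48), Snora75 (-2.39), Scarna2 (-2.26), Snora70 (-1.90) and Snora24 (-1.55). Snora74a was called higher at 1.74 but lay at -0.24 with TMM factors. Under those factors 4 and 392 of all 1028 features were called higher and lower, and 0 and 17 of the member rows. Fewer member rows, and fewer of all features, were called with either tagged IP or either untagged IP left out. No member row was called without untagged IP replicate 1. In those fits the median ran from -1.205 to -0.22 over members and from 1.366 to 2.04 over all features.

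**Figure D3:**
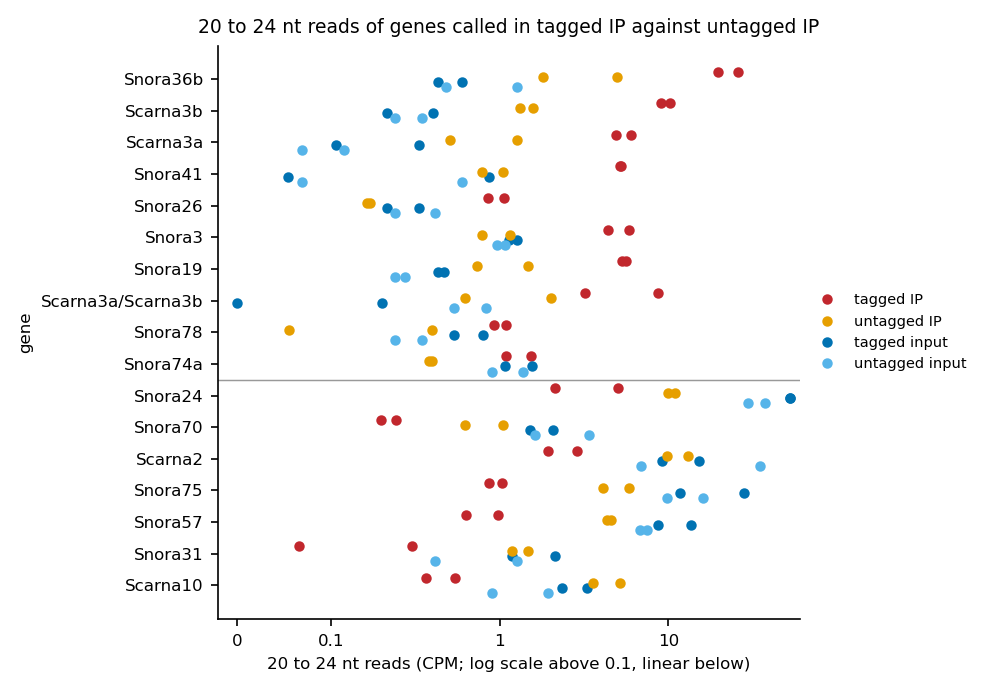
Reads of 20 to 24 nt in CPM (horizontal axis, symmetric log scale) for the 17 members called between tagged and untagged IP, 1 point a library. A line separates the 10 that were higher in the tagged IP from the 7 that were lower; Snora36b leads, with 19.8 and 26.0 CPM in tagged IPs against 1.81 and 4.99 CPM in untagged IPs.

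Among the higher ones Snora41 carries no annotated miRNA. It had 5.17 and 5.22 CPM of 20 to 24 nt reads in tagged IPs, against 0.790 and 1.04 CPM in untagged IPs and 0.0538 to 0.869 CPM in inputs. Tagged IPs lay above all the others (log2 fold change 2.49, SE 0.97, adjusted p = 0.0333), while over reads of every length Snora41 had 6.02 and 6.31 CPM in tagged IPs, against 2.60 and 3.79 CPM in untagged IPs, and was not called. The call was lost in 3 leave-one-out fits, with adjusted p up to 0.67. Snora19 had 5.29 and 5.58 CPM in tagged IPs, against 0.734 and 1.48 CPM in untagged IPs, without overlap. Against the tagged input 8 members were higher and 17 lower in this window, with 54.6% and 31.8% of all features. There Snora36b stood at 5.46, Scarna3b at 4.95, Scarna3a at 4.62, Snora19 at 3.58 and Snora41 at 3.52, and Snora75 at -4.39 and Snora24 at -3.88. Snora3 (2.09) and Snora26 (1.80) were called higher as well, but both turned lower with TMM factors and with DESeq2, and Snora26 lost its call in each of 8 leave-one-out fits.

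The single positions at which 20 to 24 nt reads began show how narrow these fragments were. In tagged IPs 25 such 5′ ends, from 14 members, reached a mean of 0.5 CPM; 23 lay past the midpoint and 13 mostly in annotated miRNA genes. These ends were taken for their level in the tagged IP, so their values against the untagged IP are a description. In Snora36b the 3′ arm, from base 106, had 11.7 and 9.34 CPM in tagged IPs, against 0.734 and 2.14 CPM in untagged IPs. Its 5′ arm, from base 69, had 3.77 and 5.48 CPM in tagged IPs, against 0.621 and 0.713 CPM in untagged IPs. The 4 starts of both arms that were higher in the tagged IP, at bases 68, 69, 106 and 107, made up 95.7% and 94.6% of its 20 to 24 nt reads in tagged IPs, against 87.5% and 96.7% in untagged IPs. They made up 11.4% in Dicer null and 92.2% in wildtype cells. For Scarna3b, bases 78 and 116 gave 95.3% and 93.2% in tagged IPs, against 89.3% and 91.7% in untagged IPs, and 4.17% in Dicer null and 75% in wildtype cells. For both members these shares were close in tagged and untagged IPs.

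Snora41 had 1 such start. Base 108 gave 4.26 and 4.52 CPM in tagged IPs, against 0.339 and 0.549 CPM in untagged IPs, and 82.4% and 86.6% of its window reads in tagged IPs against 42.9% and 52.6% in untagged IPs. The fragment lies near the 3′ end, with 3 nt of the gene after it. Snora7a base 115, with 4 nt after it, gave 0.487 and 0.399 CPM in tagged IPs (8 and 12 reads), against 0 reads in both untagged IPs. Both lie at the 3′ end of the gene, and the Snora41 fragment ends with the ACA. Snora3 and Snora64 instead began at base 1: Snora3 had 4.20 and 5.45 CPM in tagged IPs, against 0.395 and 0.658 CPM in untagged IPs, and Snora64 had 1.28 and 2.03 CPM in tagged IPs, against 0.113 and 0.658 CPM in untagged IPs. The shorter Snora3 reads also match predicted genes, one of them a miRNA gene, so its count is uncertain.

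The 3′-terminal starts ran the other way. Scarna2 base 395 had 1.89 and 1.43 CPM in tagged IPs, against 9.88 and 7.57 CPM in untagged IPs. Snora24 base 109 had 3.16 and 0.930 CPM in tagged IPs, against 7.00 and 4.55 CPM in untagged IPs and 31.6 and 18.7 CPM in tagged inputs.

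**Figure D4:**
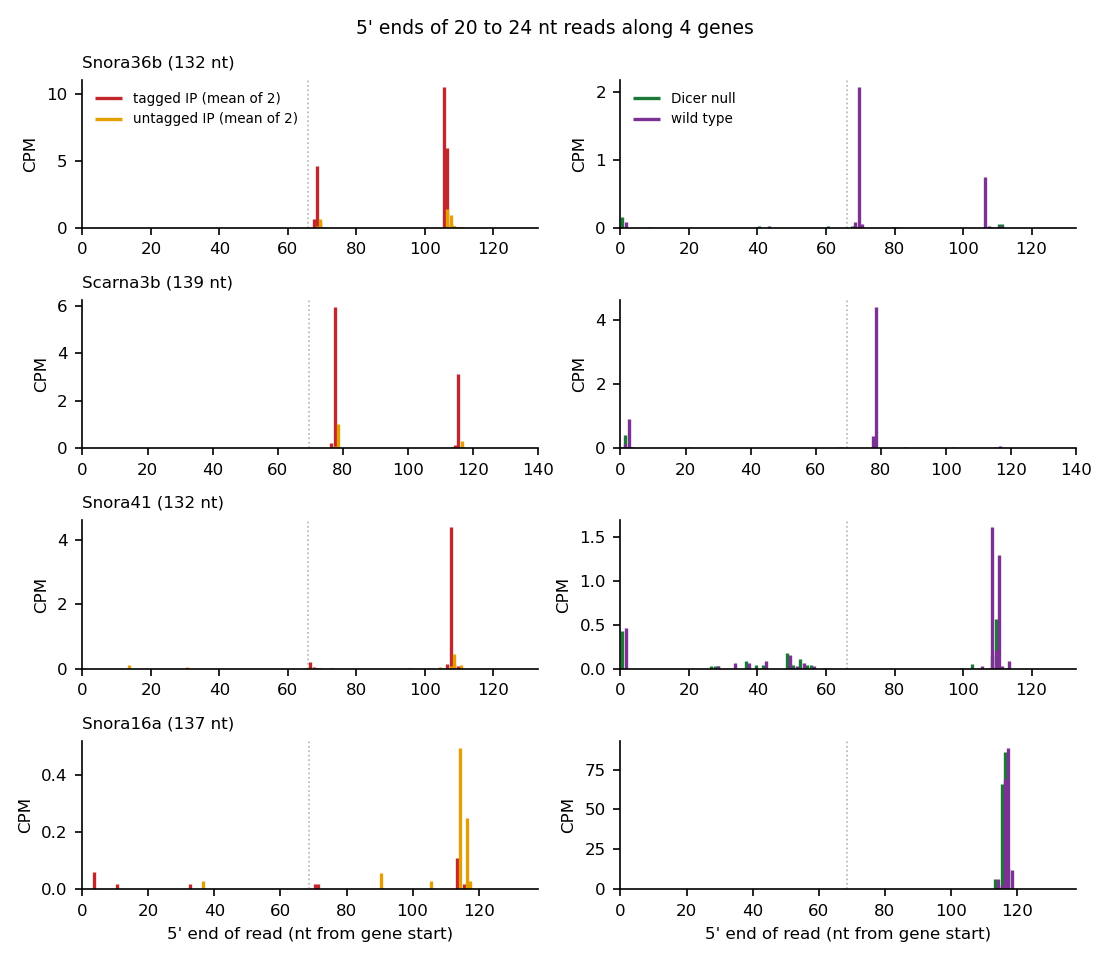
Reads of 20 to 24 nt by the base of the gene at which they begin (horizontal axis, nt from the gene start) in CPM (vertical axis, each panel with its own scale) for Snora36b, Scarna3b, Snora41 and Snora16a, tagged against untagged IP and Dicer null against wildtype cells, with the bars of each pair drawn side by side. In tagged IPs Snora41 has 1 main start, at base 108, and Snora16a has its main start at base 117 in both single libraries.

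Members made up the same share of reads in Dicer null as in wildtype cells, while a few of their fragments were nearly gone. The share was 0.3558% in Dicer null and 0.3549% in wildtype cells, a ratio of 1.002 (95% exact binomial interval 0.9956 to 1.009, counting error only); per read outside miRNA hairpins the ratio was 0.802. With 1 library each there is no test. Of 48 members with at least 100 reads in the pair, 1 was over 2-fold higher and 2 over 2-fold lower, where 19.3% and 24.1% of 1451 features were. Scarna3b had 1.85 CPM in Dicer null and 6.70 CPM in wildtype cells, a ratio of 0.277 (0.223 to 0.343). Snora36b had 1.35 CPM in Dicer null and 4.15 CPM in wildtype cells, a ratio of 0.324 (0.249 to 0.421). Snora47, the higher one, had 1.66 CPM in Dicer null and 0.248 CPM in wildtype cells.

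In the 20 to 24 nt window 3 of 40 members were over 2-fold lower in Dicer null cells and 2 higher, where 36.2% and 14.3% of 905 features were. The 3 lower ones were all among the 10 that were higher in the tagged than in the untagged IP. Such an overlap was not counted over all features, of which 48.8% of 1028 were higher in the tagged IP, so it cannot be weighed. Scarna3b had 0.609 CPM in Dicer null and 5.95 CPM in wildtype cells (ratio 0.102, interval 0.073 to 0.141). Snora36b had 0.444 CPM in Dicer null and 3.19 CPM in wildtype cells (0.139). Snora41 had 1.99 CPM in Dicer null and 4.28 CPM in wildtype cells (0.466, 0.368 to 0.590). The median ratio over members was 1.04.

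Single 5′ ends were compared next, as a description. Among 5′ ends with a mean of 0.5 CPM over the single libraries there were 122 from 37 members, and in 7 of them, from 6 members, the Dicer null value was under 0.2 of the wildtype value. Over all small-RNA genes this held for 23.7% of 2946 ends, at 78.7% of 869 ends in miRNA genes and 0.307% of 1955 ends in small-RNA genes that are neither miRNA genes nor members. An end can pass the 0.5 CPM level through the wildtype library, as Snora36b base 69 and Scarna2 base 340 did. With ends taken by their mean over the dox and no dox libraries alone, a choice made after seeing the data, 4 of 116 were under 0.2, where 21.1% of 2733 ends over all small-RNA genes were: Scarna3b base 78, the shared base 80, Snora41 base 108 and Snora7a base 115. All 7 lay past the midpoint, as did 92 of the other 115, and 4 of them in an annotated miRNA. The highest of the 7 ratios was 0.181, at Scarna2 base 340, and the lowest of the other 115 was 0.439, so no end lay between. The median of the other 115 was 1.05.

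Of the ends without annotated miRNA, those of Snora41 and Snora7a are printed above and that of Scarna2 is not. Snora41 base 108 had 0.0127 CPM in Dicer null and 1.61 CPM in wildtype cells, which is 1 read against 52 (ratio 0.00788, interval 0.000196 to 0.0459). Snora7a base 115 had 0.0254 CPM in Dicer null and 2.45 CPM in wildtype cells (0.0104, 0.00123 to 0.0387). Scarna2 base 340 had 0.241 CPM in Dicer null and 1.33 CPM in wildtype cells, and 0 reads in all 4 IPs. Within Snora7a this was a minor fragment, as the 20 to 24 nt reads of the whole gene stood at 20.8 CPM in Dicer null and 24.8 CPM in wildtype cells.

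The ends with an annotated miRNA were low as well. Scarna3b base 78 had 0.0254 CPM in Dicer null and 4.40 CPM in wildtype cells (ratio 0.00577, 0.000692 to 0.0212). Snora36b base 69 had 0.0254 CPM in Dicer null and 2.08 CPM in wildtype cells (0.0122). Scarna3a base 79 and the shared base 80 had 0 reads in Dicer null cells, against 1.58 and 1.52 CPM in wildtype cells, which makes them at least 41.5-fold and 39.9-fold lower at a floor of 3 counts. Of the 7 ends, 6 were also higher in both tagged than in both untagged IPs, and the remaining one had no IP read. Of the other 115 ends 58 had 0 reads in all 4 IPs and could not be higher there, and 3 of the 57 with IP reads were. Over all small-RNA genes 24.5% of the 2946 ends were, with 77.6% in miRNA genes and 2.05% in the other genes.

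Of the 3 members that were low without Dicer in the 20 to 24 nt window, Scarna3b and Snora41 were also higher with dox. Snora36b had 23 such reads with dox and 16 without, too few for this comparison, against 103 in wildtype cells. Members made up 0.3539% of reads with dox and 0.4138% without, a ratio of 0.855 (0.848 to 0.863), or 0.941 per read outside miRNA hairpins. Of 46 members none was over 2-fold higher or lower with dox, where 23.2% and 2.35% of 1107 features were. Of 36 members with enough 20 to 24 nt reads 3 were over 2-fold higher with dox and none lower, against 36.1% and 1.73% of 692 features. Scarna3b had 3.99 CPM with dox and 0.716 CPM without (ratio 5.57, 3.40 to 9.60). Snora41 had 3.70 CPM with dox and 1.28 CPM without (2.89, 1.94 to 4.39). The third was Snora74a, at 2.59 CPM with dox and 1.13 CPM without.

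Of the 7 ends that were low without Dicer, 5 were also under 0.2 of their dox value without dox, as were 5 of all 122 ends. Ends of other small-RNA genes were not counted by this rule, so no general share stands beside it. An end can pass the 0.5 CPM level through the dox and wildtype libraries, so low values without dox are partly built into the choice. Scarna3b base 78 had 3.05 CPM with dox and 0.0377 CPM without, or 85 reads against 1 (ratio 81.1, 14.2 to 3239). Snora41 base 108 had 1.73 CPM with dox and 0 reads without, at least 15.3-fold higher with dox. Snora7a base 115 had 1.76 CPM with dox and 0 reads without, at least 15.6-fold higher. The exceptions were Snora36b base 69, at 0.288 CPM with dox and 0.0754 CPM without (8 reads against 2), and Scarna2 base 340, at 0.144 CPM with dox and 0.301 CPM without. Among the other 115 ends 107 were within 2-fold between dox and no dox, and 99 between Dicer null and wildtype cells.

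**Figure D5:**
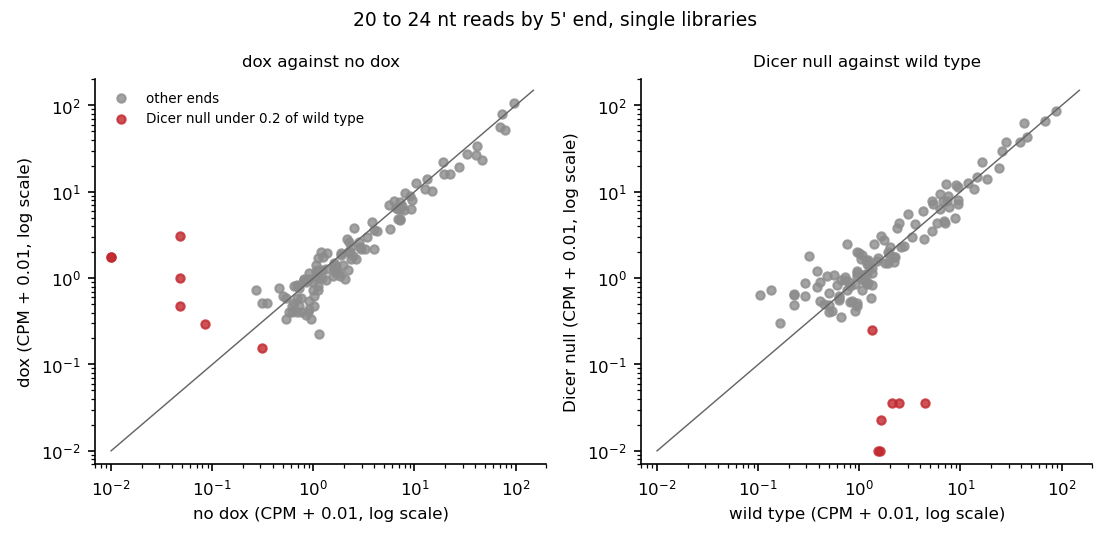
The 122 5′ ends of 20 to 24 nt reads in CPM plus 0.01 (log axes), Dicer null against wildtype cells and dox against no dox, 1 point an end. The 7 ends that lie under 0.2 of the wildtype value stand apart from the other 115, whose lowest ratio is 0.439.

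Cells of the TT line without dox differed from wildtype cells at the same members. In the 20 to 24 nt window 3 of 36 members were over 2-fold lower without dox than in wildtype cells and 2 higher, with 44% and 9.6% of 771 features. Scarna3b was at a ratio of 0.120, Snora36b at 0.189 and Snora41 at 0.299; Scarna17, a C/D-type guide in humans, was at 3.11. Over reads of every length 1 of 47 members was over 2-fold higher (Scarna6) and 2 lower (Snora33 and Snora36b), where 11.5% and 31.4% of 1177 features were. The labels do not say how these lines relate, and line and Ago2 state cannot be told apart.

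The most abundant members owed their reads to the single libraries. Snora9 had 618 CPM with dox and 744 CPM without, and 490 CPM in Dicer null and 536 CPM in wildtype cells, against at most 5.82 CPM in any IP or input. Snora81 (host Eif4a2) had 377 CPM with dox and 610 CPM without, and 508 CPM in Dicer null and 431 CPM in wildtype cells. Snora16a had 443 CPM with dox and 417 CPM without, and 377 CPM in Dicer null and 404 CPM in wildtype cells. Nearly all Snora9 and Snora81 reads also match other annotated transcripts, with 5.85% and 4.73% of their reads matching the member alone, so their counts are uncertain. Snora65, the most abundant member in inputs, had 4.56 to 5.98 CPM in the single libraries.

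Terminal fragments led these members. The last 21 nt of Snora16a, from base 117, gave 106 CPM of 20 to 24 nt reads with dox and 95.4 CPM without, and 86.2 CPM in Dicer null and 88.7 CPM in wildtype cells. It gave 0 reads in both tagged IPs. The last 21 nt of Snora9, from base 113, gave 55.8 CPM with dox and 69.4 CPM without, and 43.7 CPM in Dicer null and 45.5 CPM in wildtype cells, also with 0 reads in tagged IPs. Of the 115 ends that were not low without Dicer, the commonest read reached the annotated gene end in 74 and began in the first 3 bases in 21.

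The partners of H/ACA RNAs were read as mRNA fragments, and so bear on the pull-down rather than on protein. Against the untagged IP, 6 of the 7 tested list genes were lower in the tagged IP: Coil (-3.87), Nop10 (-3.13), Naf1 (-3.03), Gar1 (-2.97), Nhp2 (-2.87) and Nolc1 (-2.43), where 34.7% of all features were lower. These calls were lost with either tagged IP left out, when no feature passed. Several list genes stood higher in untagged IP replicate 1 than in replicate 2, such as Nolc1, with 1.16 and 0.731 CPM in tagged IPs against 7.68 and 2.47 CPM in untagged IPs, and Naf1, with 0.426 and 0.199 CPM in tagged IPs against 3.56 and 1.48 CPM in untagged IPs. Dkc1, at 4.38 and 4.49 CPM in tagged IPs against 13.2 and 5.43 CPM in untagged IPs, did not pass (log2 fold change -1.07, adjusted p = 0.156). Shq1 and Wrap53 had too few reads to be tested. The features tested are small-RNA genes apart from this list, an unlike set for mRNA fragments. Some mRNAs outside the list, not tested, were lower as well. Ago2 had 1.70 and 1.23 CPM in tagged IPs, against 13.95 and 3.13 CPM in untagged IPs. Dicer1 had 2.98 and 1.20 CPM against 11.9 and 3.07 CPM, and Ago3 0.365 and 0.532 CPM against 2.54 and 1.10 CPM. Ago4 overlapped between the IPs. The falls are thus not particular to the list. Terc, the telomerase RNA, which is built as an H/ACA RNA and is no member by symbol, had 0.365 and 0.698 CPM in tagged IPs, against 4.80 and 2.85 CPM in untagged IPs and 7.76 and 3.50 CPM in tagged inputs (-2.80 and -3.36).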

How the data were processed

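Each deposited file holds distinct read sequences with their raw read count, which the authors left unnormalised, as the values show; trimming and demultiplexing are not given in the sources used here. Per the labels' protocols, 8 libraries were circularized and 4 ligated with the NEBNext kit. Sequences of 18 nt or more were matched exactly, sense and over their whole length, to GENCODE M21 transcripts (GRCm38, 55450 genes); no genome was used, so matches elsewhere are unseen. A sequence shared by 2 members went to a merged row. Scarna15 is not analysed here.

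CPM divides counts by the file total. Quasi-likelihood F tests came from edgeR 4.0.16 under R 4.3.3, in 1 fit of the 4 replicated groups with file totals as library size, filterByExpr, adjusted p 0.05; DESeq2 1.42.0 was the alternative. The fit was checked on simulated counts. Exact tests and intervals (Clopper-Pearson, 95%) used scipy 1.17.1, tables pandas 2.3.3 and numpy 2.4.6 in Python 3.11.15, and plots matplotlib 3.10.9. A read belongs to the 3′ side when its centre lies past the gene midpoint. Intervals cover counting error only, since PCR copies are not marked.

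Named members are the 10 most abundant; per comparison the 5 largest called changes each way with a mean of 1 CPM and no overlap; per single pair the 5 highest and lowest ratios at 100 reads; the starts printed were taken from the ends past 0.5 CPM after their values were seen. Members and lists were chosen with earlier results of these data known. Other settings were TMM factors, DESeq2, no filter, other library sizes, a 19 to 25 nt window, sequences of 1 gene only, leaving out each library and a replicate block.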

Additional observations from a re-analysis of the deposited data

Results flagged for a closer look

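The gain of the tagged IP over its input differed from the gain of the untagged IP over its input in 17 member rows by the edgeR interaction test, and 8 meet the rule for named members. That is 3 of 50 member rows higher and 14 lower, where 20.1% and 19.1% of all features were called. These were flagged because the same pull-down gave different effects in both lines. The difference, tagged minus untagged on the log2 scale, was 4.75 for the sequences shared by Scarna3a and Scarna3b, 3.49 for Snora36b and 2.72 for Scarna3b. It was -5.23 for Scarna6, -4.25 for Snora15, -3.49 for Scarna10, -3.44 for Snora70 and -3.29 for Snora9. Scarna6 and Snora15 averaged only 0.0637 and 0.0969 CPM in tagged IPs, so their values rest on very few reads. In tagged IP replicates 1 and 2, 0 reads allow up to 0.183 and 0.0997 CPM. The adjusted p ran from 0.0357 to 0.0417. Each call was lost in 6 to 8 of the 8 leave-one-out fits, and the median over all features was -1.17.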

How the results depend on the processing

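The counts moved with the scale, with the tool and with single libraries left out; the cause was not tested, and DESeq2 changes the test as well as the scale. Over all reads, members higher and lower in the tagged than in the untagged IP (4 and 28) came to 2 higher with TMM factors, 9 and 1 with DESeq2, 6 lower with reads outside miRNA hairpins as library size, and 0 higher without sequences in miRNA genes. All features (495 and 534 of 1541) came to 409 and 670 with TMM factors and 598 and 119 with DESeq2. They came to 658 and 191 of 1646 outside hairpins, and 491 and 537 of 1537 without miRNA genes. Against the tagged input (5 and 35) the changed counts were 21 lower with DESeq2, 23 lower outside hairpins, 3 higher with sequences of 1 gene only and 1 higher without miRNA genes. Of all features (592 and 611 of 1541) 352 were lower with DESeq2 and 348 of 1646 outside hairpins. Higher were 590 of 1536 with 1 gene only and 589 of 1537 without miRNA genes. Untagged IP against its input (0 and 1) gave 3 and 2 with TMM factors, 10 lower with DESeq2, and 2 lower with no filter or 1 gene only. For all features (102 and 22 of 1541) it gave 496 and 18 with TMM factors and 153 lower with DESeq2. Lower were 41 of 5443 with no filter and 23 of 1536 with 1 gene only. The difference of gains (3 and 14) gave 6 and 1 with DESeq2, 4 lower with no filter, 3 lower outside hairpins and 0 higher without miRNA genes. For all features (310 and 295 of 1541) it gave 479 and 48 with DESeq2 and 166 of 5443 lower with no filter. It gave 45 of 1646 lower outside hairpins and 303 of 1537 higher without miRNA genes. At 20 to 24 nt, tagged against untagged IP (10 and 7) gave 0 and 17 with TMM factors, 4 and 13 with DESeq2, 0 and 13 with all 20 to 24 nt reads as library size, 6 higher with no filter or 1 gene only, 4 higher without miRNA genes, 1 lower outside hairpins and 11 lower at 19 to 25 nt. In that comparison 4 and 392 of all 1028 features were called higher and lower with TMM factors. With all 20 to 24 nt reads as library size 13 and 346 of 918 were, and with DESeq2 314 and 331 of 1028. Higher were 507 of 3314 with no filter, 497 of 1019 with 1 gene only and 495 of 1024 without miRNA genes. Lower were 50 of 1121 outside hairpins and 269 of 1139 at 19 to 25 nt. Against the tagged input (8 and 17) the same window gave 3 higher with TMM factors and 4 with DESeq2 or without miRNA genes. It gave 5 higher with all 20 to 24 nt reads as library size or 1 gene only, and 11 lower outside hairpins or with 1 gene only. Of all features (561 and 327 of 1028) 298 were higher with TMM factors, 430 with DESeq2 and 557 of 1024 without miRNA genes. Higher were 423 of 918 with all 20 to 24 nt reads as library size and 558 of 1019 with 1 gene only. Lower were 180 of 1121 outside hairpins and 320 of 1019 with 1 gene only.

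The member share, tagged minus untagged IP (-0.0128 percentage points), was 0.00012 per read outside hairpins and -0.0172 without miRNA genes. The 20 to 24 nt share (36.7 points) was 16.3 with each distinct sequence counted once, 31.4 without Snora36b and 19.8 without miRNA genes. The share past the midpoint (-3.29 points) was -8.08 past the H box, 2.22 with each sequence once and -9.13 without miRNA genes. The 5′ ends low without Dicer (7) came to 4 with the dox and no dox libraries alone as filter. Outside hairpins the ratio of member shares was 0.941 for dox over no dox, 0.802 for Dicer null over wildtype and 0.932 for no dox over wildtype. Snora3 against the tagged input turned to -1.29 with TMM factors and -0.044 with DESeq2, and Snora74a against the untagged IP to -0.24 with TMM factors.

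With each library left out in turn, an arm of 1 library is taken to vary like the other groups. Counts called then moved among members and among all features, and no member was called in some fits. In the order above, member medians over all reads ran from -1.88 to -1.72, -3.08 to -2.67, -0.87 to -0.45 and -2.43 to -1.79. At 20 to 24 nt they ran from -1.205 to -0.22 and -2.60 to -2.35. Medians of all features over all reads ran from -1.65 to -0.77, -1.27 to -0.115, 0.47 to 1.05 and -1.455 to -0.40. At 20 to 24 nt these ran from 1.366 to 2.04 and 2.18 to 3.98. The shares ran from -0.0137 to -0.0119, 35.3 to 38.2 and -5.14 to -1.43 points.

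Libraries of 1 replicate number share a title code, whose meaning the labels do not give, and a read length; same-numbered libraries deviated together (correlations 0.179 to 0.595 over 1541 features). With the replicate block the counts, in the same order, were 5 and 30, 5 and 35, 1 and 6, 3 and 24, 11 and 10, and 7 and 17. Of all 1541 features they were 555 and 660, 603 and 694, 407 and 140, and 426 and 476. Of all 1028 features at 20 to 24 nt they were 528 and 272, and 562 and 353. It kept 121 of 121 named results; over all settings 1370 of 1855 were kept, 482 fell short of the threshold and 3 turned sign. Snora26, at a mean of 0.957 CPM of 20 to 24 nt reads in tagged IPs and 0.167 CPM in untagged IPs, lies outside the naming rule. Its turns given above are therefore not among the 3. Depth limits the IPs most, at 2063 to 4738 member reads a library.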
